A study of Rattus norvegicus with 18 samples.

Results

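Endothelial marker genes were followed in whole-liver RNA from control rats and from 2 models of non-alcoholic steatohepatitis (NASH). A row was taken for every gene symbol on a list of 9 markers, which yielded 8 genes of the 32623 in the tables. The sinusoidal markers were Stab1, Stab2, Lyve1, Clec4g and Fcgr2b, and the vascular markers were Vwf, Cd34 and Plvap. Pecam1, the remaining vascular marker, was not analysed here. All 8 genes passed the filter on low counts and were among the 12904 genes tested.

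Each group held 6 male Wistar rats, with 1 RNA-Seq library per rat. Control rats received standard chow and normal water for 12 weeks. NASH rats inhaled carbon tetrachloride (CCl4), a hepatotoxin, with phenobarbital in their drinking water for 6 weeks, and were then switched to 4 weeks of a diet rich in fat and cholesterol (HFCD). Rats with NASH and cirrhosis (NASH-CH) had 8 weeks of CCl4 and phenobarbital, to which the HFCD was added for 16 further weeks, 24 weeks in all. CCl4 had thus been stopped before tissue was taken in NASH but not in NASH-CH livers, and the controls matched neither model in duration. The labels describe both protocols only as combined exposure to CCl4 and the diet. As the samples were whole liver, fewer cells of a type and less RNA per cell cannot be told apart in any value below.

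Liver sinusoidal endothelial cells (LSECs) line the hepatic sinusoids. Unlike most endothelium they carry open fenestrae, lack an organized basement membrane and clear waste molecules from blood through scavenger and Fc receptors. In chronic liver injury they can lose fenestrae and gain features of continuous endothelium, a change called capillarization, for which von Willebrand factor and CD34 are classical markers. CD32b, the product of Fcgr2b, is used as a marker of the differentiated LSEC. The study stained both CD32b and von Willebrand factor in these livers. It reported less CD32b and more sinusoidal von Willebrand factor in both NASH and NASH-CH than in control. Such staining scores protein in sinusoidal areas, which is a different measure from RNA of whole liver. The comparison of interest here was whether the transcripts of the markers differed between control, NASH and NASH-CH rats.

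Total expected counts ranged from 19498534 to 27174015 among controls, from 20827770 to 29491947 in NASH and from 44680344 to 60117822 in NASH-CH libraries. Depth therefore cannot be told apart from the NASH-CH condition (ratio of mean totals to control 2.07, two-sided exact permutation p = 0.00216, the smallest that 6 against 6 rats allow). Levels are given as CPM, counts scaled to a common library total after TMM scaling, which corrects totals for a few very abundant transcripts, and serve only to compare a gene between rats, not 1 gene with another. Log2 fold changes and adjusted p-values come from limma-voom with Benjamini-Hochberg adjustment over all 12904 tested genes. Scaling matters here, because totals without TMM factors put the midpoint of all genes at a log2 value of 0.23 above control for NASH and 0.27 for NASH-CH, and 90.8% and 85% of calls were then increases, against 50.6% and 49.4% with TMM. Small RNAs of the 7SK and SRP families took a median share of 17.2% of counts in controls, 14.8% in NASH and 11.4% in NASH-CH. The tissue label was matched by Alb, the albumin gene of hepatocytes, at 105874 ± 14930 CPM among controls, 74893 ± 13005 in NASH and 71037 ± 18732 in NASH-CH livers (mean ± SD, n = 6).

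RefSeq promoter windows on the GRCr8 assembly, reaching from 250 bases before to 50 bases after a transcript start, were found for 6 of the 9 listed markers. No entry was found for Fcgr2b, Vwf and Pecam1. A set of 4 are printed 5′ to 3′, because Stab1 and Cd34 each passed the test in a comparison while Stab2 and Plvap, from the same marker lists, passed it in none. Capitals mark matches, on either strand, to 2 cores bound by ETS factors (AGGAAG and CGGAAG), which act widely in endothelium, to a GATA core (AGATAA), to a MAF core (TGCTGA) and to an AP-1 core (TGANTCA).
Stab1, chr16:6367310-6367609, strand -: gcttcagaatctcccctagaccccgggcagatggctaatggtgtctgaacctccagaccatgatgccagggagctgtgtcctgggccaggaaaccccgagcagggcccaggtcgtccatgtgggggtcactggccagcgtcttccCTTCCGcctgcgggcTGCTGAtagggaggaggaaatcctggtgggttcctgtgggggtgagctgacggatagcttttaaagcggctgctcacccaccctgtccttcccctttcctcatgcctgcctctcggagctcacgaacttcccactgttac
Stab2, chr7:23320513-23320812, strand -: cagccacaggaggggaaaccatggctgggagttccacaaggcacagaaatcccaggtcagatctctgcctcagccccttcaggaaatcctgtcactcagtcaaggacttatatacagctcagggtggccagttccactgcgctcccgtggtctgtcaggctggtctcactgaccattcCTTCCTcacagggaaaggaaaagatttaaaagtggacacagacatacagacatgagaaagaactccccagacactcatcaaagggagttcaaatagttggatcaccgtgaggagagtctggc
Cd34, chr13:109008536-109008835, strand +: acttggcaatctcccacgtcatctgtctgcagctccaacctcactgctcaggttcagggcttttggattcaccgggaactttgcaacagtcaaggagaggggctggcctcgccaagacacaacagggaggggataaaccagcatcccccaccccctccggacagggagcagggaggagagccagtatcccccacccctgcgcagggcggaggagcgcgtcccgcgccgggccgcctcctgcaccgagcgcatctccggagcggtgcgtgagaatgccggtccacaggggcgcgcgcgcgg
Plvap, chr16:18231230-18231529, strand -: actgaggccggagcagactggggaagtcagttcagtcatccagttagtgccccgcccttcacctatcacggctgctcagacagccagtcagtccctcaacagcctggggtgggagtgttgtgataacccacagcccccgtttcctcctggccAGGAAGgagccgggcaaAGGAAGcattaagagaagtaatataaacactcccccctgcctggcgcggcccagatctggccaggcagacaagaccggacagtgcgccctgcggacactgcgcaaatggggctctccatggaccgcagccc

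The AGGAAG core was present in 4 of the 6 windows, those of Stab2, Lyve1, Clec4g and Plvap, and in 34.5% of all 33469 promoters. Clec4g held 4 matches, of which several overlap in a run of repeats. CGGAAG and the MAF core were matched once each in Stab1 and in no other marker, against 16.6% and 18.4% of all promoters. Neither AGATAA nor the AP-1 core was matched in any of the 6 windows (11.6% and 7.33% of all promoters), and the Cd34 window held no match to any of the 5 cores. These matches describe letters only, in a genome assembly other than that of the counts.

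Vwf encodes von Willebrand factor, the adhesive glycoprotein stored in endothelial granules and released to capture platelets. Its level had a lowest, median and highest value of 7.98, 10.9 and 14.3 CPM among controls, 9.26, 17.3 and 22.8 CPM in NASH, and 15.99, 23.4 and 39.9 CPM in NASH-CH livers. Every NASH-CH rat lay above every control rat, and 5 of 6 NASH rats did, with NASH rat 6 inside the control range. Vwf (ENSRNOG00000019689) rose 2.19-fold in NASH-CH relative to control (95% interval 1.58 to 3.04), or by 1.13 log2 units (SE 0.23, adjusted p = 0.00245), and kept this call in all 18 fits that each left out 1 rat. The value in NASH was 1.49-fold (95% interval 1.07 to 2.07, log2 fold change 0.57, SE 0.23), which did not pass (adjusted p = 0.151). It passed only when NASH rat 6 was omitted (log2 fold change 0.74, adjusted p = 0.0495). Between NASH-CH and NASH the log2 difference of 0.56 (SE 0.22) was not significant either (adjusted p = 0.171), so the means stood in the order control, NASH, NASH-CH with only the outer pair separated by the test.

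CD34, encoded by Cd34 (ENSRNOG00000045558), is a sialomucin of capillary endothelium, blood progenitors and some fibroblasts that is sparse on normal LSECs. It was rare in these libraries, with 7 to 24 counts among controls, 16 to 32 in NASH and 39 to 162 in NASH-CH livers. In CPM the lowest, median and highest values were 0.413, 0.768 and 1.16 among controls, 0.617, 0.918 and 1.17 in NASH, and 0.852, 1.26 and 2.13 in NASH-CH livers. The NASH-CH group was led by rats 2 and 5, and 4 of its 6 rats exceeded every control rat. Cd34 rose 1.94-fold in NASH-CH relative to control (95% interval 1.24 to 3.04, log2 fold change 0.96, SE 0.31, adjusted p = 0.0398). This call was lost in 7 of 18 fits that left out 1 rat (control 1, 2, 4 or 5, or NASH-CH 2, 5 or 6), with adjusted p up to 0.117. The NASH comparison gave 0.36 (SE 0.36, adjusted p = 0.604) and that between the models 0.60 (SE 0.28, adjusted p = 0.262), both as log2 fold changes.

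Plvap encodes the protein of the diaphragms that close endothelial fenestrae and caveolae. Its level spanned 2.60 to 4.85 CPM among controls (median 3.60), 2.18 to 4.19 in NASH (median 3.39) and 2.05 to 5.00 in NASH-CH livers (median 4.06), and the 3 groups overlapped throughout. The log2 fold change relative to control was -0.15 in NASH (SE 0.23, adjusted p = 0.757) and 0.090 in NASH-CH (SE 0.21, adjusted p = 0.801), with 95% intervals of -0.64 to 0.34 and -0.35 to 0.53. Without TMM factors the NASH value was 0.066, of opposite sign.

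**Figure D1:**
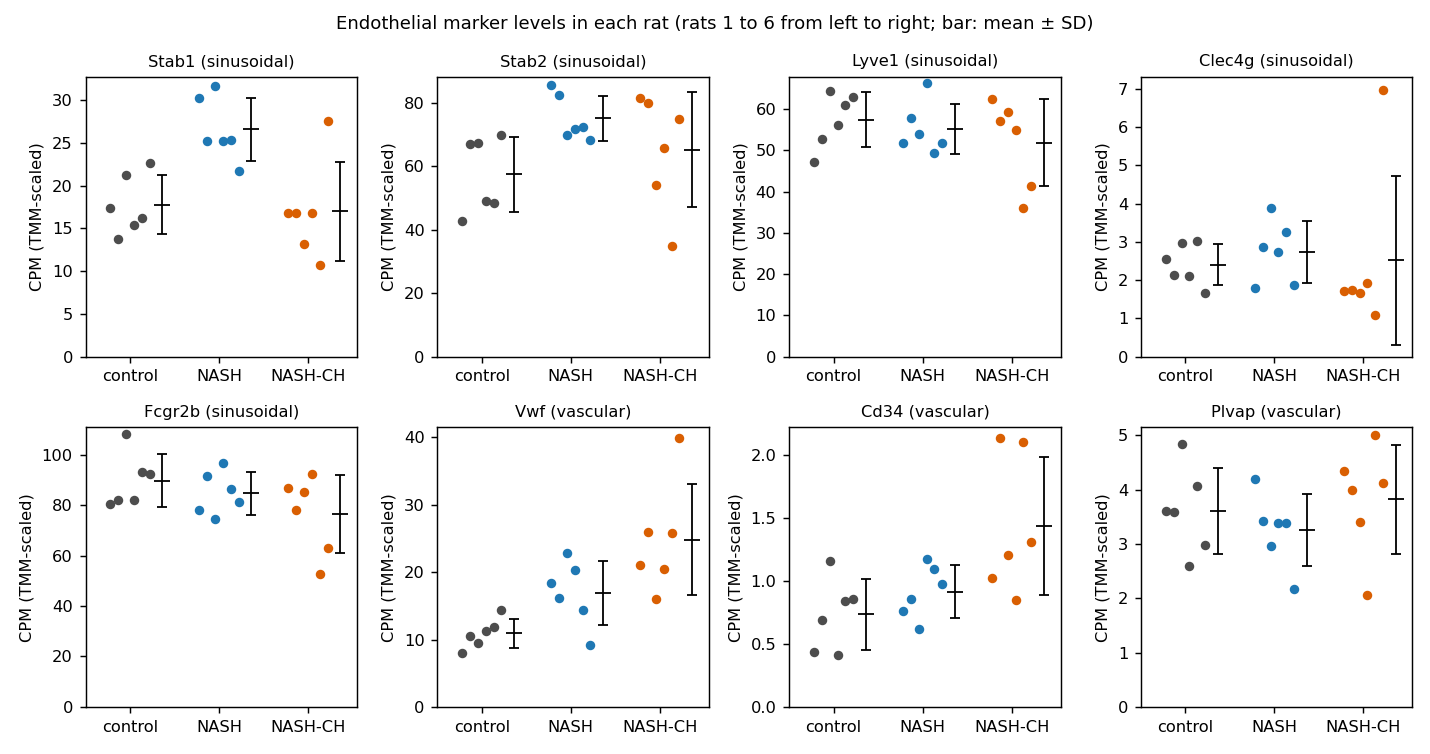
TMM-scaled CPM (y axes, linear from 0) of the 8 markers in each of the 6 control, 6 NASH and 6 NASH-CH rats, with black bars for the group mean ± SD. All NASH-CH points for Vwf lie above the highest control point (14.3 CPM), and a single NASH-CH rat carries the highest Clec4g value (6.98 CPM).

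Among the sinusoidal markers, Stab1 and Stab2 encode stabilin-1 and stabilin-2, large scavenger receptors that clear hyaluronan, modified lipoproteins and other waste. Stab1 (ENSRNOG00000018434) is also made by some macrophages. It had a lowest, median and highest level of 13.8, 16.8 and 22.7 CPM among controls, 21.8, 25.3 and 31.7 CPM in NASH, and 10.7, 16.8 and 27.6 CPM in NASH-CH livers. NASH rats were thus the highest group, with 5 of 6 above every control rat. Of the NASH-CH rats, rat 6 lay above the control range, rats 3 and 5 below it and the others within it. Stab1 was lower in NASH-CH than in NASH, 1.62-fold, a log2 difference of -0.69 (SE 0.18, adjusted p = 0.0318). The call was lost in 6 of 18 fits without 1 rat (NASH 1, 3 or 5, or NASH-CH 2, 3 or 5), with adjusted p up to 0.0833, and also without TMM factors (adjusted p = 0.0694). The NASH value against control, 1.51-fold (95% interval 1.16 to 1.96, log2 0.59, SE 0.18), missed the threshold (adjusted p = 0.0754). It passed without control rat 6 (adjusted p = 0.0382), NASH-CH rat 5 (adjusted p = 0.0402) or NASH-CH rat 6 (adjusted p = 0.0268), and with both NASH-CH rats removed its adjusted p was 0.0131. In NASH-CH against control the log2 fold change was -0.10 (SE 0.18, adjusted p = 0.732), which turned to 0.15 without TMM factors and to 0.012 without NASH-CH rat 5.

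Stab2 (ENSRNOG00000038948), which is largely restricted to sinusoidal endothelium of liver, spleen and lymph node, had lowest, median and highest levels of 42.6, 58.0 and 69.8 CPM among controls, 68.3, 71.9 and 85.5 CPM in NASH, and 34.7, 70.2 and 81.6 CPM in NASH-CH livers. Its NASH values were tightly grouped at the upper end of the control range or above, with 5 of 6 rats above all controls, whereas the NASH-CH rats spread more widely, down to rat 5. Neither the NASH difference of 0.42 log2 units (SE 0.17, adjusted p = 0.168) nor the NASH-CH difference of 0.17 (SE 0.18, adjusted p = 0.534) passed. The NASH difference passed without TMM factors (0.63, adjusted p = 0.0480) and with sample quality weights (0.42, adjusted p = 0.0460). Between the models the log2 difference was -0.24 (SE 0.18, adjusted p = 0.526).

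Lyve1 encodes a hyaluronan receptor shared by LSECs, lymphatic vessels and some macrophages, and Fcgr2b encodes the inhibitory Fc gamma receptor CD32b that takes up small immune complexes. Lyve1 (ENSRNOG00000026902) spanned 47.2 to 64.5 CPM among controls (median 58.6), 49.5 to 66.3 in NASH (median 52.9) and 36.1 to 62.5 in NASH-CH livers (median 56.0). Fcgr2b (ENSRNOG00000046452) spanned 80.5 to 108 CPM among controls (median 87.1), 74.3 to 96.8 in NASH (median 83.7) and 52.7 to 92.5 in NASH-CH livers (median 81.6). For both genes the NASH-CH rats 5 and 6 stood below every other liver in TMM-scaled CPM and the remaining 4 lay within the range of the control and NASH rats. This low place depended on the scaling, as rats 5 and 6 had the largest TMM factors of all 18 (1.28 and 1.22). Scaled by library totals alone, control rat 1 lay below both of them for each gene. Lyve1 differed from control by -0.054 log2 units in NASH (SE 0.12, adjusted p = 0.842) and by -0.16 in NASH-CH (SE 0.13, adjusted p = 0.417). For Fcgr2b these values were -0.080 in NASH (SE 0.12, adjusted p = 0.748) and -0.24 in NASH-CH (SE 0.13, adjusted p = 0.196), with 95% intervals of -0.33 to 0.17 and -0.51 to 0.022. All 4 values changed sign without TMM factors, to 0.17, 0.091, 0.15 and 0.0095 in the order given. Fcgr2b was the only marker with expected counts that were not whole, in 18 of 18 rats at a tolerance of 0.001, so some of its reads were shared with another gene or genes and its level is less certain.

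Clec4g encodes LSECtin, a C-type lectin of LSECs. This low-count gene (40 to 379 counts) had lowest, median and highest levels of 1.65, 2.34 and 3.02 CPM among controls, 1.78, 2.80 and 3.90 CPM in NASH, and 1.08, 1.73 and 6.98 CPM in NASH-CH livers. NASH-CH rat 6 alone was above every other liver, and the remaining 5 NASH-CH rats did not exceed 1.92 CPM. With all rats, Clec4g (ENSRNOG00000054013) gave a log2 fold change of -0.21 in NASH-CH against control (SE 0.37, adjusted p = 0.733), 0.19 in NASH against control (SE 0.40, adjusted p = 0.826) and -0.40 in NASH-CH against NASH (SE 0.35, adjusted p = 0.603). The first of these was 0.070 by edgeR, 0.058 by DESeq2 and 0.015 without TMM factors. Without NASH-CH rat 6 the difference from control was -0.57 (adjusted p = 0.103) and that from NASH was -0.76, which passed (adjusted p = 0.0488).

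**Figure D2:**
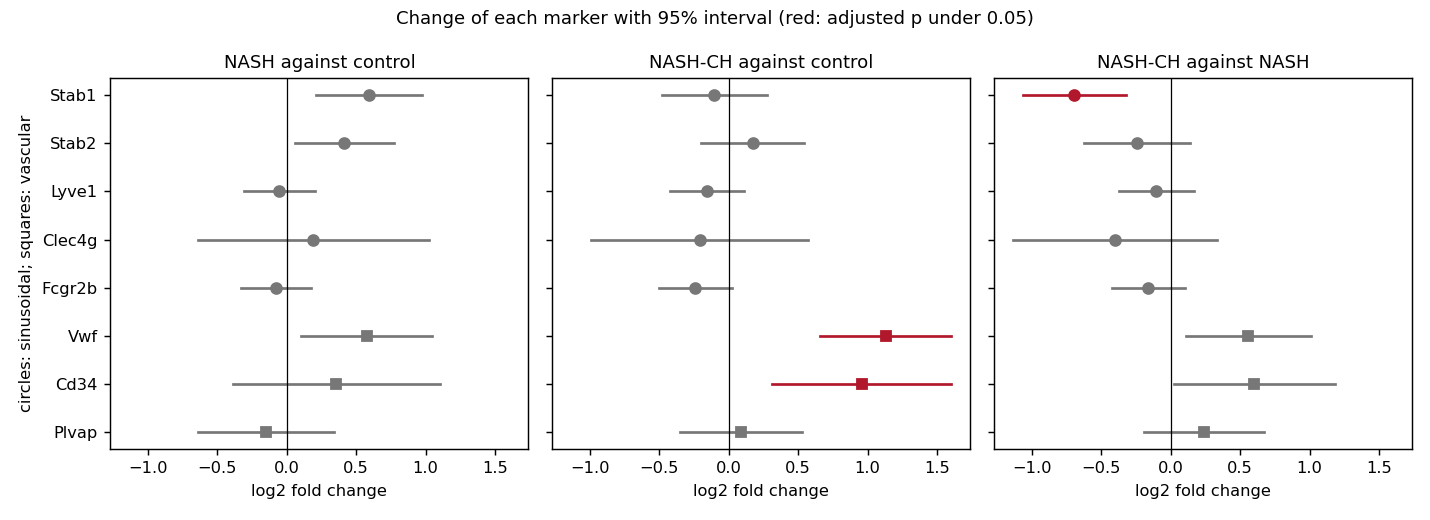
Log2 fold change of each marker (x axes) with its 95% interval in the 3 comparisons of limma-voom, with circles for sinusoidal and squares for vascular markers. Red marks an adjusted p under 0.05, reached by Vwf (1.13) and Cd34 (0.96) in NASH-CH against control and by Stab1 (-0.69) in NASH-CH against NASH.

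Counted over the markers, 2 of 3 vascular and 0 of 5 sinusoidal genes rose in NASH-CH relative to control, and 0 of 8 fell, beside 8.38% of all tested genes that rose and 8.60% that fell. For the sinusoidal genes the count at an unadjusted p under 0.05 was also 0, as were the counts by edgeR's quasi-likelihood test and by DESeq2. The median log2 fold change was 0.96 for the 3 vascular genes, which is the value of Cd34 alone, -0.16 for the sinusoidal genes and 0.013 for all genes. In NASH, limma-voom called 0 of 8 markers, where 1.58% of tested genes were higher and 1.54% lower. At an unadjusted p under 0.05 there were 3 markers (Stab1, Stab2 and Vwf), edgeR called 0 and DESeq2 called 1, Stab1. Between NASH-CH and NASH, 1 of 5 sinusoidal genes was lower and 0 of 3 vascular genes passed (2 at an unadjusted p under 0.05, and 0 by edgeR and by DESeq2), beside 1.81% of tested genes higher and 2.39% lower. Groups did not overlap for 1 of 8 markers in NASH-CH against control, Vwf, and for 0 of 8 in the other comparisons. That separation was found for 7.11% of all tested genes in NASH-CH against control, 3.16% in NASH against control and 3.46% in NASH-CH against NASH. Without NASH-CH rats 5 and 6, a choice made after the data had been seen, Vwf remained called in NASH-CH against control (log2 fold change 0.92, adjusted p = 0.0116) and Cd34 did not (0.77, adjusted p = 0.103).

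The balance of the marker types was also read within each liver, where library scaling cancels. The mean log2 CPM of the 5 sinusoidal genes minus that of the 3 vascular genes was 3.09 ± 0.16 among controls, 3.02 ± 0.16 in NASH and 2.27 ± 0.58 in NASH-CH livers (mean ± SD, n = 6). It ran from 2.92 to 3.29 among controls, from 2.84 to 3.23 in NASH and from 1.21 to 2.92 in NASH-CH livers. Rat 5 was the lowest of the NASH-CH group, and rat 4 was the highest, level with the lowest control rat. The log2 ratio of Vwf to Stab2 moved from -2.38 ± 0.31 in control through -2.20 ± 0.44 in NASH to -1.39 ± 0.59 in NASH-CH livers. Its NASH-CH values began at -1.95, above the highest control value of -2.03. The ratio of Vwf to Fcgr2b, the transcript counterparts of the stained proteins, was -3.05 ± 0.31, -2.37 ± 0.48 and -1.65 ± 0.69 log2 units in the same order. As these scores combine genes already tested above, no test is given for them.

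**Figure D3:**
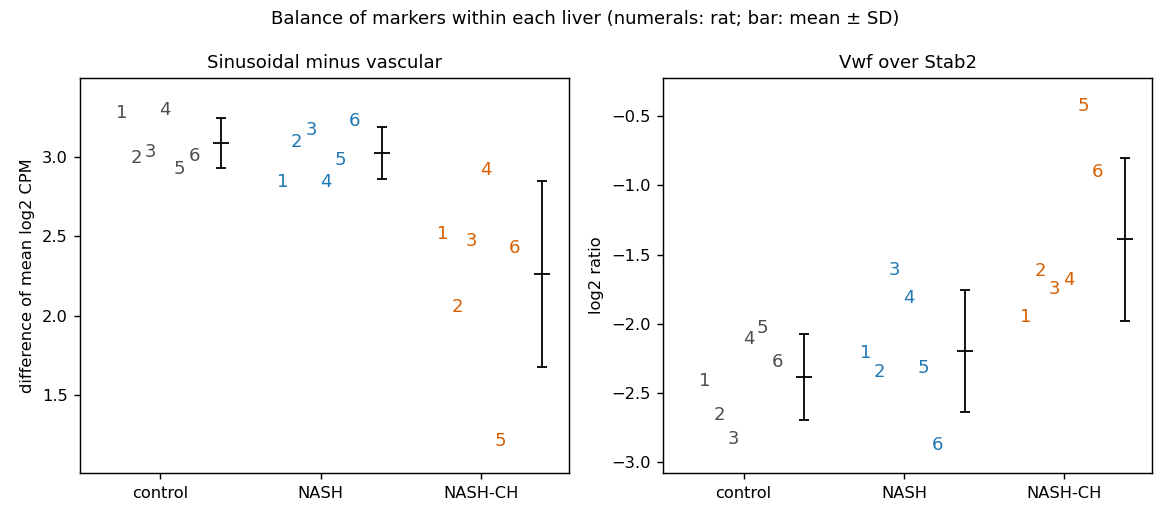
Balance of markers within each liver, as the difference of mean log2 CPM between sinusoidal and vascular markers (left) and the log2 ratio of Vwf to Stab2 (right), with each rat drawn as its number and bars for mean ± SD. NASH-CH rats sit lower on the left (mean 2.27 against 3.09 in control) and higher on the right, and NASH-CH rat 5 is the extreme in both panels.

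To see whether markers varied together among rats of the same group, the group mean of log2 CPM was subtracted and all 28 pairs of the 8 genes were correlated over the 18 rats, with permutation within groups. Lyve1 and Fcgr2b formed the only pair that passed adjustment over the 28 pairs, with Pearson's r = 0.88 (permutation p = 0.00011, adjusted p = 0.00308) and Spearman's rho = 0.85 (permutation p = 0.00033, adjusted p = 0.00924). Without the 2 rats farthest from the median of Lyve1, r was 0.78, and within groups it was 0.84 among controls, 0.69 in NASH and 0.94 in NASH-CH livers. Stab1 and Stab2 gave r = 0.62 (permutation p = 0.0413, adjusted p = 0.261) and rho = 0.61 (permutation p = 0.0249, adjusted p = 0.348), and r was 0.42 without the 2 farthest rats. For Stab1 and Clec4g, r was 0.67 (permutation p = 0.0229, adjusted p = 0.235) and rho 0.34 (permutation p = 0.182, adjusted p = 0.730), and r fell to 0.14 without the 2 farthest rats, so that relation rested on those rats. Stab1 and Vwf gave r = 0.56 (permutation p = 0.0251, adjusted p = 0.235) and rho = 0.41 (permutation p = 0.105, adjusted p = 0.730), with r at 0.55 without the 2 farthest rats. Cd34 and Plvap gave r = 0.51 (permutation p = 0.0466, adjusted p = 0.261) and rho = 0.46 (permutation p = 0.0799, adjusted p = 0.730), with r at 0.43 without the 2 farthest rats. Vwf and Cd34, the genes that rose in NASH-CH, gave r = 0.12 (permutation p = 0.647, adjusted p = 0.995) and rho = 0.18 (permutation p = 0.477, adjusted p = 0.938).

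**Figure D4:**
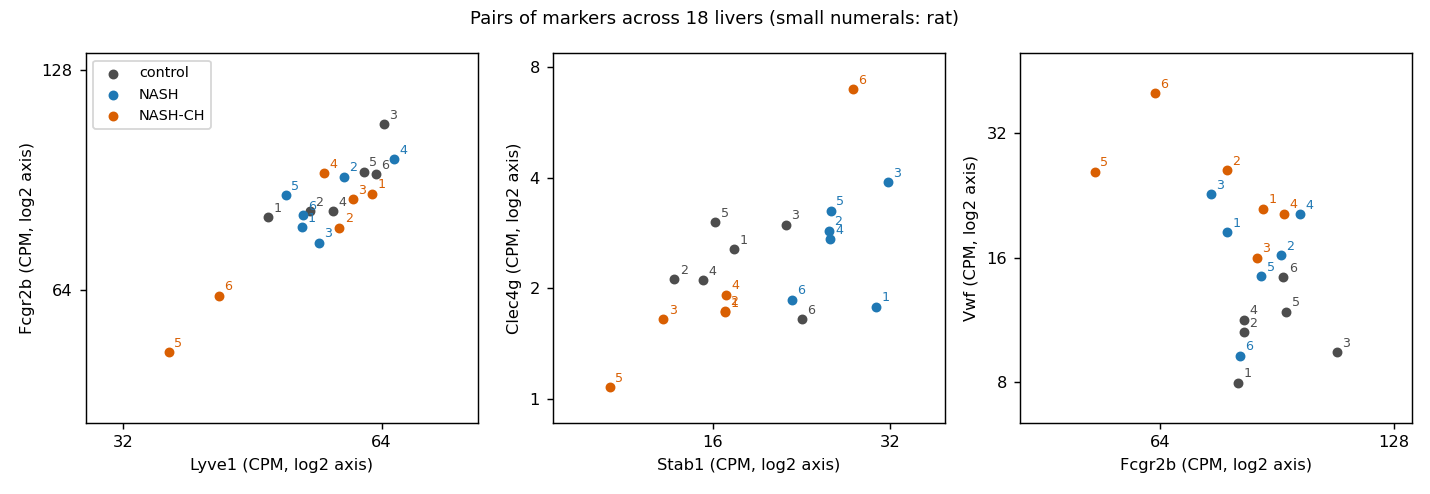
Levels of 3 marker pairs in the 18 livers on log2 axes (TMM-scaled CPM), coloured by group and numbered by rat. The low place of NASH-CH rats 5 and 6 for Lyve1 and Fcgr2b depends on the TMM factors. Lyve1 and Fcgr2b rise together (centred r = 0.88) with NASH-CH rats 5 and 6 at the low end, Stab1 and Clec4g are stretched by NASH-CH rats 5 and 6, and those same rats hold the lowest Fcgr2b beside Vwf levels of 25.8 and 39.9 CPM.

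The tested genes whose levels most resembled those of a marker, after subtraction of group means over the 18 rats, are given as a description, since they were chosen for this resemblance and share libraries and depth. For Lyve1 they were Fcgr2b, Sat2 (r = 0.87) and the endothelial lectin Clec1a (r = 0.84). Stab2 was closest to Ptprb, an endothelial receptor phosphatase (r = 0.88), to Ppm1b (r = 0.88) and to Tbc1d24 (r = 0.86). Stab1 was closest to F8, which encodes coagulation factor VIII and is made by LSECs (r = 0.85), to Pdzd2 (r = 0.83) and to Arap3 (r = 0.81). Fcgr2b was followed by Pla2r1 (r = 0.83) and Tfb2m (r = 0.82) after Lyve1, and Clec4g by Arhgef1 (r = 0.88), Nf1x (r = 0.86) and Vbp1 (r = 0.84). On the vascular side, Cd34 was closest to Slit3, which encodes a secreted guidance factor (r = 0.84), Epb41l2 (r = 0.84) and Kif21b (r = 0.83). Vwf was closest to Gapvd1 (r = 0.86), Exoc6b (r = 0.83) and Ift88 (r = 0.83). For Plvap the closest were the small nucleolar RNA genes SNORA29 (r = 0.85) and SNORD47 (r = 0.78), followed by Gsn, which encodes the actin-severing protein gelsolin (r = 0.77).

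Other genes of sinusoidal endothelium were read from a list of 25, of which 24 were tested. From control to NASH-CH limma-voom called 2 of them higher and 1 lower, beside 8.38% and 8.60% of all tested genes, with a median log2 fold change of -0.058. Without TMM factors 3 were higher and 0 lower. The fatty acid and scavenger receptor gene Cd36, which hepatocytes also express, stood at 21.6 CPM against 9.82 among controls (log2 fold change 1.03, SE 0.31, adjusted p = 0.0271), and the protocadherin gene Pcdh17 at 1.24 against 0.439 CPM (1.35, SE 0.45, adjusted p = 0.0471). Wnt2, an angiocrine Wnt ligand, was lower, at 1.00 against 1.54 CPM (-0.61, SE 0.20, adjusted p = 0.0403). Of these, Cd36 lost its call without control rat 1, 2, 4 or 5 or NASH-CH rat 1 (adjusted p up to 0.0649), and in the 18 fits without 1 rat Wnt2 lost it in 8 (up to 0.101) and Pcdh17 in 14 (up to 0.121). Without NASH-CH rats 5 and 6 together, 1 of the 24 was higher and 0 lower. Between the models, limma-voom called 1 of 24 lower in NASH-CH and 0 higher (11 had an unadjusted p under 0.05), whereas edgeR called 1 higher and 0 lower and DESeq2 2 each way. The gene called by limma-voom was Bmp2, an angiocrine ligand gene that controls hepcidin (-0.68, SE 0.19, adjusted p = 0.0451), whose call was lost in 7 of 12 alternative settings, including edgeR and library size without TMM factors (adjusted p up to 0.122), and in 11 of 18 such fits (adjusted p up to 0.0953). In NASH relative to control limma-voom called 0 of 24, with 5 at an unadjusted p under 0.05, 0 by edgeR and 2 by DESeq2. Their median log2 fold changes were 0.18 in NASH and -0.27 between NASH-CH and NASH. Gata4, the transcription factor that maintains LSEC identity, had a mean of 10.3 ± 1.26 CPM among controls, 12.3 ± 2.73 in NASH and 10.1 ± 3.92 in NASH-CH livers (n = 6).

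From a list of 39 other vascular endothelial genes, 33 were tested. Limma-voom called 1 higher and 1 lower in NASH-CH than in control, beside 8.38% and 8.60% of all tested genes. The counts were 3 higher and 1 lower by edgeR, 3 and 2 by DESeq2, 4 and 0 without TMM factors, and 2 and 0 without NASH-CH rats 5 and 6. The tight junction gene Cldn5 stood at 0.683 against 0.199 CPM (log2 fold change 1.69, SE 0.53, adjusted p = 0.0361) and the arterial gap junction gene Gja4 at 3.45 against 5.33 CPM (-0.74, SE 0.23, adjusted p = 0.0350). The Cldn5 call was lost in 6 of 18 fits without 1 rat (adjusted p up to 0.0924) and that of Gja4 without control rat 3, 4 or 6 or NASH-CH rat 5 or 6 (up to 0.0783). Cldn5 had 1 to 10 counts among controls, 6 to 8 in NASH and 12 to 114 in NASH-CH livers. It passed the filter on low counts largely through NASH-CH, where it was high, so little weight can be put on its call. Limma-voom called 0 of 33 in NASH relative to control (5 at an unadjusted p under 0.05, 0 by edgeR, 1 by DESeq2). It also called 0 of 33 between the models (11 at an unadjusted p under 0.05, 1 by edgeR, 2 by DESeq2). The median log2 fold change was 0.043 in NASH-CH and 0.029 in NASH. Cdh5, which encodes the adherens junction protein VE-cadherin of all endothelium, was at 21.4 ± 2.73 CPM among controls, 24.1 ± 2.11 in NASH and 21.96 ± 2.18 in NASH-CH livers (mean ± SD, n = 6). The 3 vascular markers named above had a median of 0.96 in the same NASH-CH comparison, which is the Cd34 value, between 1.13 for Vwf and 0.090 for Plvap.

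**Figure D5:**
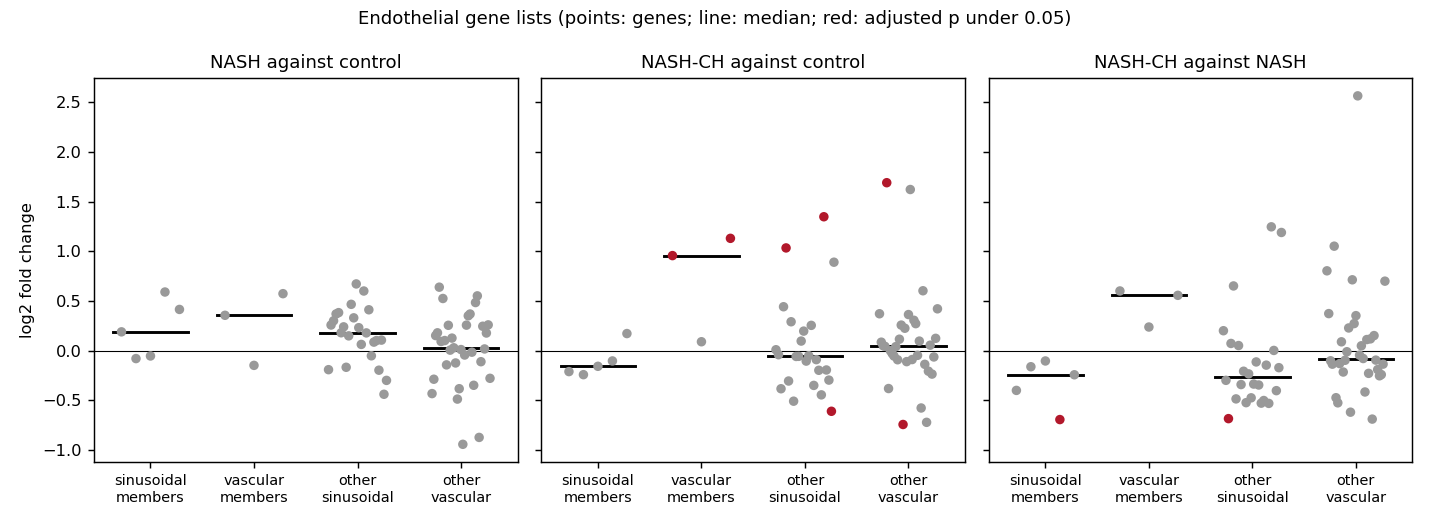
Log2 fold change (y axis) of each tested gene of the sinusoidal markers, the vascular markers and the wider sinusoidal and vascular lists in the 3 comparisons, with black lines for medians and red for an adjusted p under 0.05. In NASH-CH against control the medians are -0.16, 0.96 (the value of Cd34, 1 of 3 vascular markers), -0.058 and 0.043 from left to right.

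Lymphatic vessels share Lyve1 with LSECs. Of 5 tested genes of 6 listed, 1 was higher in NASH-CH than among controls, the lymphatic chemokine gene Ccl21, which ran from 4.04 to 60.7 CPM in NASH-CH and from 1.62 to 3.17 CPM in control rats (log2 fold change 2.09, SE 0.65, adjusted p = 0.0341, lost in 8 of 18 fits without 1 rat, with adjusted p up to 0.0721). Over all tested genes, 8.38% were higher in that comparison. Limma-voom called 0 of 5 in NASH relative to control (2 at an unadjusted p under 0.05, 0 by edgeR, 2 by DESeq2) and 0 of 5 between the models (4 at an unadjusted p under 0.05, 2 each by edgeR and DESeq2).

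Genes of other cells that can express the markers were measured beside them, and their part in the marker values was not tested. Macrophages can contribute Stab1, Lyve1 and Fcgr2b. Of 11 tested macrophage genes, 8 were lower and 0 higher when NASH-CH was set against control, beside 8.60% and 8.38% of all tested genes. In NASH limma-voom called 1 of the 11 lower, beside 1.54% of all tested genes, while 6 had an unadjusted p under 0.05. By edgeR 2 were lower in NASH and by DESeq2 3. The direction was not shared by all, as 1 of the 11 had a log2 fold change above 0 in NASH-CH against control. Among the 8 lower genes, those with the largest statistics were Cd5l (-0.93, SE 0.21, adjusted p = 0.00534), the scavenger receptor gene Marco (-2.15, SE 0.48, adjusted p = 0.00568) and the receptor gene Csf1r (-0.46, SE 0.11, adjusted p = 0.00635), as log2 fold changes. The count of 8 was 3 without NASH-CH rats 5 and 6 and 2 without TMM factors. Marco was also the gene that limma-voom called lower in NASH (-2.78, SE 0.58, adjusted p = 0.0168). The summed level of the list ran from 367 to 666 CPM among controls, from 288 to 405 in NASH and from 239 to 364 in NASH-CH livers. Between the models 0 of 11 passed in limma-voom, edgeR and DESeq2, with 1 at an unadjusted p under 0.05.

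Platelets and their precursors carry Vwf. Their 8 listed genes summed to 6.16 to 12.1 CPM among controls, 6.41 to 8.74 in NASH and 5.17 to 8.17 in NASH-CH livers, and only 2 were abundant enough to test. Most of this sum was Itga2b (mean 8.76 CPM among controls, where the median sum was 9.79), so it mainly reflects that gene. Pf4, a platelet chemokine gene, was higher in NASH-CH, at 0.829 against 0.169 CPM among controls (log2 fold change 2.73, SE 0.55, adjusted p = 0.00264). It had 1 to 9 counts among controls, 1 to 13 in NASH and 24 to 107 in the deeper NASH-CH libraries. Pf4 thus passed the filter on low counts only through NASH-CH, where it was high, so little weight can be put on its calls. Itga2b, which encodes a subunit of the platelet fibrinogen receptor, was lower, at 5.61 against 8.76 CPM (-0.66, SE 0.17, adjusted p = 0.0118), a call lost without TMM factors (-0.40, adjusted p = 0.0790). Over all tested genes, 8.38% were higher and 8.60% lower in that comparison, and 1.81% were higher in NASH-CH than in NASH. Pf4 was also higher in NASH-CH than in NASH (1.82, SE 0.46, adjusted p = 0.0307), a call lost without NASH rat 1, 2, 3 or 5 or NASH-CH rat 2 (adjusted p up to 0.0785). In NASH relative to control 0 of 2 passed in limma-voom, edgeR and DESeq2, and 0 at an unadjusted p under 0.05.

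B cells carry Fcgr2b. The defining gene Cd79a, which encodes a chain of the B cell receptor complex, was too rare to test, with 0 to 8 counts among controls, 0 to 13 in NASH and 3 to 11 in NASH-CH livers. Of the 4 B cell genes tested, 1 was lower in NASH-CH than among controls, Cd22 (-0.57, SE 0.17, adjusted p = 0.0288, lost in 6 of 18 fits without 1 rat, with values up to 0.0810). Over all tested genes, 8.60% were lower in that comparison. The 8 listed genes summed to between 4.64 and 8.80 CPM over all 18 rats, and most of this sum was Cd22 (mean 5.04 CPM among controls). For B cell genes the other comparisons had 0 calls by limma-voom, edgeR and DESeq2, with 1 gene each at an unadjusted p under 0.05.

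Fibroblasts can carry Cd34. Of 9 tested mesenchymal genes, limma-voom called 3 higher and 0 lower when NASH-CH was set against control, beside 8.38% and 8.60% of all tested genes. The 3 were Pdgfra, a growth factor receptor gene of stellate cells and fibroblasts (log2 fold change 0.54, SE 0.12, adjusted p = 0.00461), the intermediate filament gene Des (0.65, SE 0.14, adjusted p = 0.00468) and the fibrillar collagen gene Col1a1 (1.02, SE 0.28, adjusted p = 0.0186). Without TMM factors 6 passed, and without NASH-CH rats 5 and 6 the count was 2. Between the models 3 were higher in NASH-CH, namely Des (0.56, SE 0.13, adjusted p = 0.0218), Col1a1 (1.01, SE 0.28, adjusted p = 0.0451) and Col3a1 (0.49, SE 0.13, adjusted p = 0.0457), and the calls of both collagen genes were lost in 14 of 18 fits without 1 rat (adjusted p up to 0.0993 and 0.120), and that of Des without NASH rat 1, 2 or 6 (up to 0.0755). This count of 3, beside 1.81% of all tested genes higher, was 6 by edgeR, 7 by DESeq2, 1 without NASH-CH rats 5 and 6, and 0 without TMM factors. In NASH relative to control limma-voom called 0 of 9 (4 at an unadjusted p under 0.05, 0 by edgeR, 1 by DESeq2). The summed mesenchymal level ran from 454 to 597 CPM among controls, from 328 to 516 in NASH and from 458 to 587 in NASH-CH livers. Most of this sum was Col3a1 and Dpt, whose means lay in opposite directions. They were 236 and 226 CPM among controls and 278 and 161 CPM in NASH-CH livers. Of the 9 tested genes, 8 had a log2 fold change above 0 in NASH-CH against control.

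Hepatocytes make up the bulk of liver tissue. Of their 8 genes, all tested, 3 were lower in NASH-CH relative to control, Apoa1 (-0.66, SE 0.16, adjusted p = 0.0107), Ttr (-0.76, SE 0.20, adjusted p = 0.0174) and Alb (-0.61, SE 0.19, adjusted p = 0.0304), which encode apolipoprotein A-I, transthyretin and albumin. Over all tested genes, 8.60% were lower in that comparison and 1.54% in NASH against control. The Alb call was lost without control rat 1 or 5 or NASH-CH rat 6 (adjusted p up to 0.0704), and the count was 1 without NASH-CH rats 5 and 6. In NASH 1 was lower, Apoa1 (-0.82, SE 0.16, adjusted p = 0.0110), with 3 at an unadjusted p under 0.05, 1 lower by edgeR and 2 by DESeq2. Without TMM factors Apoa1 kept neither call (adjusted p = 0.0548 for NASH, and 0.115 with a log2 fold change of -0.39 for NASH-CH). Between the models 0 of 8 passed by limma-voom, edgeR and DESeq2, with 1 at an unadjusted p under 0.05. The direction was not common to the list, as 2 of the 8 had a log2 fold change above 0 in NASH-CH against control. The 8 genes together took 113799 to 160955 CPM among controls, 76166 to 121343 in NASH and 58359 to 117857 in NASH-CH livers. Most of this sum was Alb (mean 105874 CPM among controls, where the median sum was 127230), so it mainly reflects that gene.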

How the data were processed

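Liver RNA of 18 rats was profiled by RNA-Seq with a TruSeq mRNA library kit, and groups were taken from the group entry of each label. For RNA isolation the RNAqueous-Micro kit is named in the labels and the miRNeasy kit in the methods. The authors trimmed adapters, aligned reads to Rnor_6.0 with STAR in 2-pass mode and counted genes with RSEM and Ensembl release 95. The submitters' processing notes also name FastQC, Trim Galore and limma, and tool versions are not given in the sources used here. The authors deposited RSEM expected counts per gene, normalized for neither depth nor gene length. These counts were rounded, as in the methods. Because no gene lengths were used, levels were not compared between genes.

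Genes passing edgeR's filterByExpr were scaled by TMM (edgeR 4.0.16) and tested with limma-voom (limma 3.58.1, R 4.3.3) in 1 fit of all 18 rats, with Benjamini-Hochberg adjustment over 12904 genes and a threshold of 0.05. Log2 CPM used a prior count of 2. Library totals were compared by exact permutation and marker pairs by 100000 permutations within groups. The alternatives comprised DESeq2 1.42.0, the quasi-likelihood test of edgeR, other scalings, filters, weights and thresholds, thinned NASH-CH counts, removal of small RNA genes, a replicate block and leaving out each rat. The fits were tried on simulated data. Depth sets counting error only, and 6 rats per group limit each comparison. Every pair of rats within a group differed by more than counting error (smallest chi-square per degree of freedom 29.8). Members and gene lists were chosen with earlier results of these data known. All markers were named, and from each list up to 3 called genes per direction with the largest moderated t, or all where 5 or fewer were called, plus defining cell type markers, of which 1 is not reported here. For genes most like a marker, the 3 with the highest centred Pearson r were named. Rats of different groups share replicate numbers in their titles. Same-numbered rats did not deviate together (mean r of deviations 0.0516 for NASH and control, 0.0732 for NASH-CH and control and 0.0154 for NASH-CH and NASH, with at most 2 of 6 pairs over 0.1), so the fit without a block was kept.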

Additional observations from a re-analysis of the deposited data

Results flagged for a closer look

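Clec4g in NASH-CH rat 6 (6.98 CPM) lay far from the other 5 NASH-CH rats (1.08 to 1.92 CPM), with a gap of 0.695 of the group's range in log2 CPM. It was 1 of 24 marker and group combinations examined, and chance alone would single out about 1 in 20 such groups.

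Stab1 was flagged because its log2 change from the shared controls was lower in NASH-CH than in NASH. The difference was -0.69 (SE 0.18, limma-voom adjusted p = 0.0318), which is the direct comparison of the models. Neither change from control passed by limma-voom (adjusted p = 0.0754 in NASH and 0.732 in NASH-CH). The model difference lost its call in 6 of 18 fits without 1 rat. It was also lost with library size only (adjusted p = 0.0694) and with 2 groups fitted alone (adjusted p = 0.0658). Of the NASH-CH rats, 5 of 6 were below every NASH rat.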

How the results depend on the processing

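Vwf kept its increase in NASH-CH relative to control under all 12 alternative settings (log2 fold change 0.92 to 1.39, adjusted p 4.69e-06 to 0.0116) and without each rat (0.99 to 1.24). Markers called in NASH, NASH-CH and NASH-CH against NASH numbered 0, 2 and 1. The NASH count was 1 by DESeq2, with 2 groups fitted alone or without NASH-CH rats 5 and 6, and 2 with library size only or sample quality weights. The NASH-CH count was 1 at an adjusted p under 0.01, with at least 10 counts in every rat, with 2 groups fitted alone, with quality weights or without NASH-CH rats 5 and 6. The count between models was 0 at 0.01, with library size only or with 2 groups alone. Without 1 rat, these counts ran from 0 to 1, from 1 to 2 and from 0 to 2.

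Genes called in NASH (403) numbered 39 at 0.01, 652 by edgeR, 1228 by DESeq2, 865 with library size only (785 higher, 80 lower), 268 without the filter, 644 with 2 groups alone, 1509 with quality weights, 1014 without NASH-CH rats 5 and 6, and 128 to 982 without 1 rat. For NASH-CH against control (2192) they numbered 849 at 0.01, 5495 without the filter, 1408 with 2 groups alone and 1519 to 2409 without 1 rat. Between models (542) they numbered 239 at 0.01, 949 by DESeq2, 2649 without the filter, 349 with 2 groups alone, 271 without small RNA genes and 346 to 591 without 1 rat. With library size only, 2781 higher and 489 lower genes were called for NASH-CH against control and 119 higher and 248 lower between models. With the replicate block the counts were 444, 2095 and 540 genes and 0, 2 and 1 markers.

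Log2 fold changes that turned sign belonged to markers that had not passed. With library size only these were Lyve1 (0.17), Fcgr2b (0.15) and Plvap (0.066) in NASH, and Stab1 (0.15), Lyve1 (0.091), Clec4g (0.015) and Fcgr2b (0.0095) in NASH-CH against control. Clec4g in NASH-CH was 0.070 by edgeR and 0.058 by DESeq2. With quality weights Plvap in NASH-CH was -0.011 and Lyve1 between models 0.042. Without NASH-CH rats 5 and 6, Lyve1 was 0.031 and Plvap -0.076 in NASH-CH against control, and Lyve1 0.084 and Fcgr2b 0.017 between models. Without 1 rat, NASH-CH against control spanned -0.25 to 0.012 for Stab1. Plvap spanned -0.014 (without NASH-CH rat 5) to 0.24, and was -0.0085 without control rat 4, and Clec4g spanned -0.57 to 0.011 (without NASH-CH rat 5). The cause of these shifts was not tested. Low counts (7 to 162) limit the precision for Cd34.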
